A study of Homo sapiens with 10 samples.

Results

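The genes described here belong to the unfolded protein response and to the ATF4 program that answers amino acid shortage and other stress. The set holds 36 genes, of 14330 genes tested on the arrays. They were chosen by name, 21 for an amino acid (ATF4) arm and 15 for an endoplasmic reticulum (ER) chaperone arm. The choice was made with earlier results of these data known, and all 36 passed the filter on low values. RNA came from 2 human prostate cancer lines, LNCaP, from a lymph node metastasis and responsive to androgen, and DU145, from a brain metastasis and independent of it. In each line there were 3 groups. Ribavirin cells were EOS cells of number 2 treated with ribavirin, a guanosine analogue, on 1 array a line, at a dose and for a time that the labels do not give. EOS cells, on 2 arrays a line, carried GFP and puromycin resistance driven by enhancers of OCT4 and SOX2, and they had grown in puromycin for some weeks. PGK cells, on 2 arrays a line, were the controls and carried GFP and the resistance gene behind the ubiquitous PGK promoter. All 10 samples were thus transduced cells with GFP and a resistance gene. The labels do not say whether arrays 1 and 2 of a group came from separate selections, nor that they are clones, so each p-value rests on a spread between arrays that may be only technical. Each EOS or PGK group holds 1 array of each number, so in the comparisons of groups and lines that spread is the difference between the numbers.

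Levels are given as scaled intensities, in arbitrary units, after each array was brought to the same trimmed mean of 500. They compare 1 gene across arrays and not 1 gene with another. The deposited trimmed mean was 96.6 to 126.5 in the 6 arrays numbered 2 and 500 in the 4 arrays numbered 1. For ACTB, the 3' over 5' signal, which reflects the length of the amplified RNA, was 3.20 to 3.99 in arrays numbered 2 and 1.24 to 1.51 in arrays numbered 1. The same ratio for GAPDH moved far less, from 1.09 to 1.22 in arrays numbered 2 and from 0.96 to 1.06 in arrays numbered 1. Of 6 markers of prostate luminal cells 4 were measured, and they matched the line labels, since the summed level of KLK3, KLK2, TMPRSS2 and HOXB13 was 45056 to 73633 in LNCaP, against 56.0 to 114 in DU145. Of the markers of other cell types, 4 of 5 leukocyte genes, 5 of 5 fibroblast genes and 3 of 3 endothelial genes were measured, all of them dim in most arrays. Their summed levels in LNCaP, against DU145, were 76.9 to 271 against 83.0 to 148 for leukocyte, 305 to 825 against 334 to 1150 for fibroblast and 139 to 304 against 80.8 to 156 for endothelial genes.

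Cells sense unfolded protein in the ER through the membrane proteins PERK, IRE1 and ATF6. IRE1 splices the XBP1 mRNA, ATF6 is cleaved in the Golgi, and the resulting transcription factors raise ER chaperones, folding enzymes and the machinery that degrades misfolded proteins. PERK and the kinase GCN2, which senses uncharged tRNA, phosphorylate the initiation factor eIF2, which slows translation but favours translation of the ATF4 mRNA. ATF4 then raises amino acid transporters, enzymes that make amino acids and further stress regulators such as DDIT3, known as CHOP. In prostate cells much protein passes through the ER for secretion, and this response is known to be active there.

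The promoter elements of the 2 arms can be shown beside the genes that carry them. In RefSeq promoters of GRCh38.p14, 32 of the 36 genes had an entry, 17 in the ATF4 arm and 15 in the ER arm, and the 250 bases before the start were searched on both strands. The ER stress element, CCAAT, 9 bases and CCACG, lay in 5 of 15 ER arm promoters (33.3%), in 0 of 17 ATF4 arm promoters and in 0.0806% of all 27305 promoters. The promoters that held it are printed with the element in capitals.
HSPA5, chr9:125241379-125241421, minus strand: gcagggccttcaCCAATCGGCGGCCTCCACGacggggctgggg
XBP1, chr22:28800591-28800633, minus strand: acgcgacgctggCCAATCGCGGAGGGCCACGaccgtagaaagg
CALR, chr19:12938372-12938414, plus strand: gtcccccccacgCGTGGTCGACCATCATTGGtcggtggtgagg
CRELD2, chr22:49918542-49918584, plus strand: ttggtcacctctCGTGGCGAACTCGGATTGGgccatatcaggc
HSP90B1, chr12:103930204-103930351, plus strand: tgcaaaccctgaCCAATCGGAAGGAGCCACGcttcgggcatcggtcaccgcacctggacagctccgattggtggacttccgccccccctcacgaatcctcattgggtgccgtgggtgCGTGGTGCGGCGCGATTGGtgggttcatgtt
HSP90B1 had the element at both ends of the printed stretch, on opposite strands. A second form of the element, ATTGG, 1 base and CCACG, lay in 3 of 15 ER arm promoters (20%), in 0 of 17 ATF4 arm promoters and in 0.0513% of all promoters. It is in capitals in the stretches that follow, with other searched elements also in capitals.
HERPUD1, chr16:56931954-56932047, plus strand: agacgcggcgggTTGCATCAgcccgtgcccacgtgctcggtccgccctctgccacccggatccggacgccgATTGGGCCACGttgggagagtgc
HYOU1, chr11:119057262-119057405, minus strand: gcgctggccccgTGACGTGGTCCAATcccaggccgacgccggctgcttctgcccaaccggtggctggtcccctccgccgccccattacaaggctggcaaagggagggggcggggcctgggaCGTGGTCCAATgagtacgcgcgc
SDF2L1, chr22:21642102-21642136, plus strand: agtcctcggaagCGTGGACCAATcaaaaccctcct
In HYOU1 the first capitals hold TGACGTGG, an element of XBP1 and ATF6, overlapping the second form on the opposite strand. TGACGTGG lay in 1 of 15 ER arm promoters (6.67%), in 0 of 17 ATF4 arm promoters and in 0.667% of all promoters. The core of the ATF4 and C/EBP composite element, TGATGNAA, lay in 2 of 17 ATF4 arm promoters (11.8%), in 1 of 15 ER arm promoters, that of HERPUD1 (6.67%), and in 3.19% of all promoters.
ASNS, chr7:97872457-97872488, minus strand: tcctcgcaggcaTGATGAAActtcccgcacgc
CHAC1, chr15:40953250-40953281, plus strand: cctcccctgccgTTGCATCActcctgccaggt
In HERPUD1 the composite core is the first run of capitals, and in HERPUD1 and CHAC1 it reads on the opposite strand. A match is a run of letters and shows no binding.

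Between the lines, 7 of 10 ER chaperones and foldases of the set passed as higher in LNCaP, among them MANF, CRELD2 and CALR, while genes of the ATF4 arm passed in both directions. The comparison sets 4 LNCaP arrays, 2 EOS and 2 PGK, against the 4 DU145 arrays of the same groups, with no ribavirin array. Of the 15 ER arm genes, 10 passed limma's test as higher (adjusted p under 0.05 over all genes) and 1, ATF6, as lower, with a median log2 difference of 0.71. Of the 21 ATF4 arm genes, 7 passed as higher and 5 as lower, with a median of 0.02. The background is wide: 22.6% of all tested genes passed as higher and 23.6% as lower, with a median of -0.01. The ATF4 arm's calls are thus near the background, and the ER arm's higher calls were more frequent and its lower calls less frequent than the background, a description for which no test over the list was made. Whether fewer expressing cells or less RNA per cell gives a lower level cannot be told apart in such samples.

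The chaperones and foldases of the ER are given first, each with 5 values a line in the order ribavirin, EOS 2, EOS 1, PGK 2 and PGK 1. Overlap between the lines is described here gene by gene. The share of all tested genes without overlap is not given, so its absence does not set a gene apart. Scaled intensities of MANF, a small ER protein that binds the chaperone BiP, were 10884, 12138, 13515, 12978 and 14239 in LNCaP, against 6382, 6006, 4930.1, 5597 and 5188 in DU145. The lines did not overlap, and MANF was 2.43-fold higher in LNCaP (log2 difference 1.28 ± 0.11, ± standard error, limma adjusted p = 3.9e-05). CRELD2, an ER-resident folding factor, measured 6978, 6675, 5894, 6573 and 6068 in LNCaP, against 2482, 3087, 2421, 2788 and 3299 in DU145. It was higher in LNCaP in every array, by 1.12 ± 0.13 log2 (adjusted p = 0.000207). CALR, the lectin chaperone calreticulin, measured 4810.1, 4648, 5473, 5338 and 4978 in LNCaP, against 2652, 2841, 2417, 2613 and 2742 in DU145. SDF2L1, a partner of BiP complexes, measured 2895, 3326, 3599, 4392 and 4042 in LNCaP, against 1838, 2310.3, 1964, 1909 and 1908 in DU145. Neither gene overlapped between the lines, and CALR was higher by 0.94 ± 0.12 and SDF2L1 by 0.92 ± 0.12 log2. HYOU1, a nucleotide exchange factor for BiP, measured 2164, 2015, 2630.2, 2366 and 2849.6 in LNCaP, against 1269, 1365, 1461, 1411 and 1229 in DU145. It was higher by 0.83 ± 0.15 log2 with no overlap. PDIA4, a protein disulfide isomerase, measured 9975, 9111, 11300.5, 12255 and 10222 in LNCaP, against 6815, 7549.5, 4746, 6726 and 7401 in DU145. Its lines lay closer, without overlap, and it was higher by 0.71 ± 0.17 log2 (adjusted p = 0.00762). DNAJB9, a J-domain cochaperone of BiP, measured 1969, 1756, 1292, 1947 and 1618 in LNCaP, against 986, 948, 1104, 1063 and 1404 in DU145. Here LNCaP EOS 1 lay below DU145 PGK 1, and the difference of 0.54 ± 0.17 log2 passed (adjusted p = 0.0304).

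The remaining folding genes did not pass between the lines. HSPA5, which encodes BiP itself, a central ER chaperone, measured 19302, 17766, 29853, 28091 and 28537 in LNCaP, against 23611, 24105, 21064, 19943 and 22324 in DU145. The lines overlapped, since LNCaP EOS 2 and the LNCaP ribavirin array were the lowest of the 10, and the log2 difference was 0.23 ± 0.16. HSP90B1, the ER member of the HSP90 family, measured 9359, 8359.7, 11599.6, 11149 and 12268 in LNCaP, against 9721, 9873, 6007, 8328 and 7286 in DU145 and differed by 0.47 ± 0.18 log2 (adjusted p = 0.06). PDIA6, another disulfide isomerase, measured 11509, 11609, 12637, 12026 and 12697 in LNCaP, against 11174, 11491, 11441, 10601 and 11886 in DU145. It varied least over the set's arrays in the ER arm, and its log2 difference was 0.11 ± 0.10. With the probe set used for each gene, all 10 chaperones and foldases thus lay above 0 and 7 passed.

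The ER-associated degradation genes and the transcription factors of the arm were mixed. HERPUD1, a membrane protein of the degradation machinery, measured 5869, 6972, 7213, 7496 and 8614 in LNCaP, against 4232, 4432, 3815, 3683 and 4102 in DU145, without overlap, and was higher by 0.91 ± 0.12 log2. EDEM1, a lectin that delivers misfolded glycoproteins for degradation, measured 1672, 1750.4, 1499, 1347 and 1528 in LNCaP, against 1065, 1093, 783, 992 and 1461 in DU145. DU145 PGK 1 lay among the LNCaP values, and EDEM1 just passed at 0.52 ± 0.18 log2 (adjusted p = 0.0457). SEL1L, the adaptor of the ubiquitin ligase HRD1, measured 1696, 1783, 2965, 2164 and 3139.7 in LNCaP, against 2908, 3445, 2893, 3648 and 3218 in DU145. Its difference of -0.42 ± 0.20 log2 did not pass, and it was -0.85 among arrays numbered 2 and 0.00 among arrays numbered 1. XBP1, the factor spliced by IRE1, measured 2476, 3757, 2460.4, 4390.3 and 3257 in LNCaP, against 1363, 1525, 1536, 1657 and 1888 in DU145 and was higher in LNCaP by 1.04 ± 0.18 log2 with no overlap. ATF6, the membrane sensor, measured 825, 767, 814, 517 and 450.4 in LNCaP, against 1433, 1314, 909, 1225 and 1036 in DU145 and was lower in LNCaP, at -0.83 ± 0.17 log2 (adjusted p = 0.00424), again with no overlap. These levels cover all XBP1 and ATF6 mRNA of the probe set used and say nothing of splicing or cleavage. A dim XBP1 probe set gave -0.94, and 2 of 3 other ATF6 probe sets gave 0.41 and 0.73. A second HSPA5 probe set, at scaled intensities of 180 to 1615, gave -1.94. With the mean of all probe sets of a gene, XBP1, ATF6 and HERPUD1 were not called. Under that alternative HSPA5 was called as lower in LNCaP and HSP90B1 as higher.

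**Figure D1:**
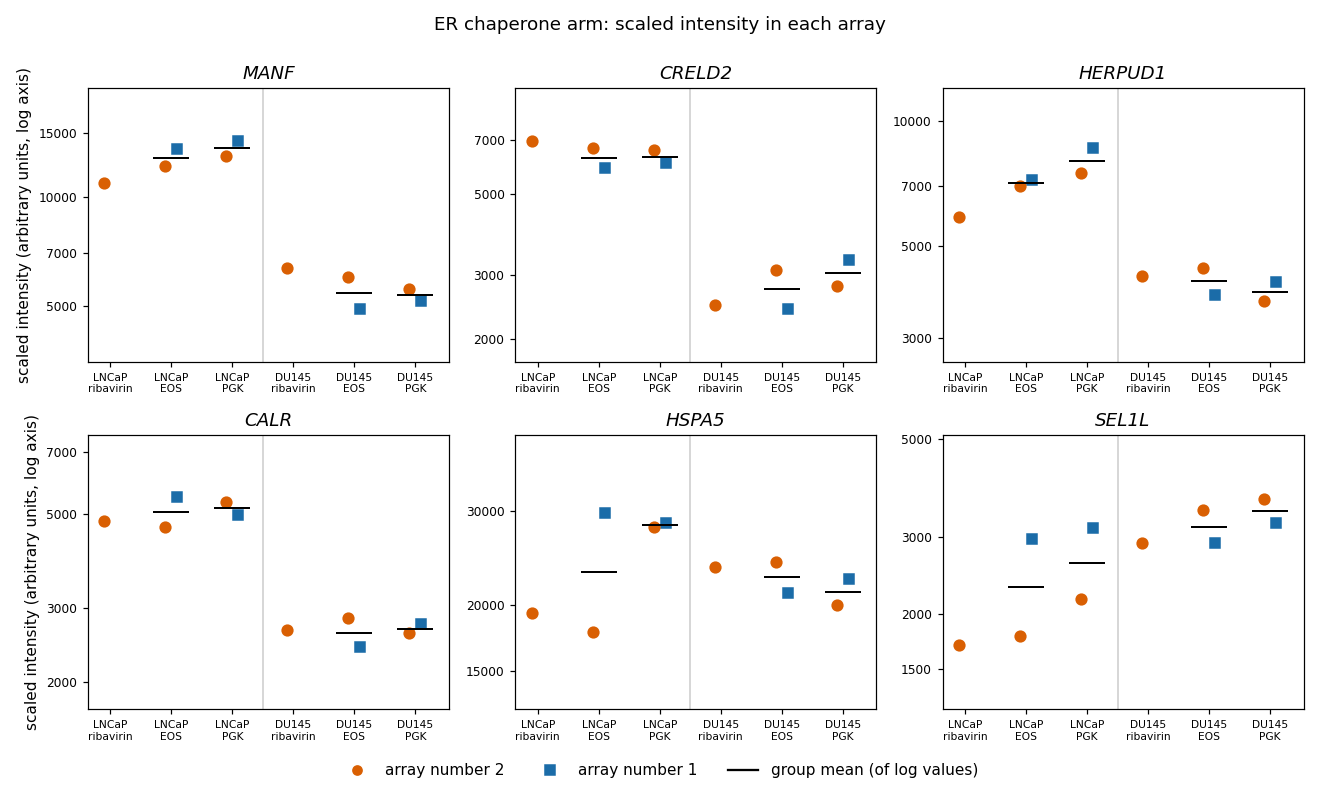
Scaled intensity (arbitrary units, log axis) of 6 ER chaperone arm genes in each of the 10 arrays, by line and group. Circles are arrays numbered 2, squares arrays numbered 1, and bars the mean of the log values of a group with 2 arrays. MANF, CRELD2, HERPUD1 and CALR were higher in all 5 LNCaP arrays than in all 5 DU145 arrays, HSPA5 overlapped between the lines, and SEL1L was low in the LNCaP arrays numbered 2.

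Among the regulators of the ATF4 arm, the widest difference between the lines was in NUPR1, a small stress-induced nuclear protein. It measured 10125, 12882, 4996, 5711 and 5829 in LNCaP, against 122, 119, 151, 163 and 230.2 in DU145. NUPR1 was 38.4-fold higher in LNCaP (log2 5.26 ± 0.28, limma adjusted p = 2.44e-06), far beyond the spread within either line. DDIT3, the pro-apoptotic factor CHOP, measured 1008, 1754, 781, 2108 and 623 in LNCaP, against 624, 418, 368, 439 and 485 in DU145. It was higher by 1.41 ± 0.39 log2 (adjusted p = 0.0159), and the lines touched where LNCaP PGK 1 lay just below DU145 ribavirin. TRIB3, a pseudokinase that binds ATF4 and dampens it, measured 2475, 4127, 2202, 4389 and 3096 in LNCaP, against 1337, 1476, 1694, 1729 and 1664 in DU145 and was higher by 1.02 ± 0.21 log2 with no overlap. ATF5, a relative of ATF4 also favoured when eIF2 is phosphorylated, measured 233, 348, 308, 527 and 429 in LNCaP, against 186, 283, 329, 211 and 231 in DU145. It overlapped between the lines and was higher by 0.58 ± 0.18 log2 (adjusted p = 0.0285). On the lower side, CEBPB, a partner of ATF4 on composite elements, measured 6099, 7024, 3734, 6589 and 5103 in LNCaP, against 8555, 10930.5, 13748, 15681 and 13193 in DU145. PPP1R15A, known as GADD34, which brings a phosphatase to eIF2, measured 153, 139, 137, 74.7 and 77.3 in LNCaP, against 259.5, 267, 259, 213 and 263 in DU145. Neither overlapped, and both passed as lower in LNCaP, CEBPB at -1.28 ± 0.21 and PPP1R15A at -1.16 ± 0.20 log2.

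ATF4 itself measured 20377, 27582, 8938, 27899 and 13502 in LNCaP, against 16592, 18274, 17079, 17501 and 15979.9 in DU145. Its difference over both numbers was 0.02 ± 0.34 log2, but LNCaP lay above DU145 among arrays numbered 2, at 0.63, and below it among arrays numbered 1, at -0.59. CHAC1, an enzyme that breaks down glutathione, did the same, with 275, 459.6, 122, 314 and 296 in LNCaP, against 162, 187, 270.5, 141 and 283 in DU145. Its differences were 1.15 among arrays numbered 2 and -0.50 among arrays numbered 1, and 0.33 ± 0.40 over both.

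Of the enzymes, PHGDH, which opens serine synthesis, measured 6026, 6583, 7060.1, 7967 and 6534 in LNCaP, against 2019.7, 1817, 2361, 1979 and 2345 in DU145. It was 3.30-fold higher in LNCaP (log2 1.72 ± 0.14, adjusted p = 2.51e-05) with no overlap. ASNS, asparagine synthetase, a classical ATF4 target, measured 11695, 13818, 7697, 16077 and 10308 in LNCaP, against 7428, 5631, 5175, 5202 and 6240 in DU145 and was higher by 1.05 ± 0.21 log2, again with no overlap. CTH, which makes cysteine from cystathionine, measured 2999, 4113, 1271, 2029 and 2131 in LNCaP, against 1401, 1407, 799, 989.7 and 1137 in DU145 and was higher by 1.03 ± 0.34 log2 (adjusted p = 0.0376), with LNCaP EOS 1 inside the DU145 range. PSPH, the last step of serine synthesis, measured 2486, 2847, 3581, 4319 and 4344 in LNCaP, against 6341, 5829, 4464, 5971 and 5387 in DU145. It went the other way from PHGDH, at -0.53 ± 0.14 log2 (adjusted p = 0.013), without overlap. Its other probe sets were at -0.01 and -0.06, and with the mean of all 3 PSPH was at -0.20 and not called. PSAT1, the middle step, measured 12926, 14981, 12193, 19026 and 15946 in LNCaP, against 17104, 14916, 14889, 14229 and 14794 in DU145, and its difference of 0.06 ± 0.11 log2 did not pass. The mitochondrial folate enzymes did not pass either. SHMT2 measured 8198, 9242, 14320.4, 9157 and 12153 in LNCaP, against 8087, 10127, 8441, 7727 and 8252 in DU145, with a difference of 0.36 ± 0.17 log2. MTHFD2 measured 15415, 17365, 11078, 18205 and 12718 in LNCaP, against 19620.1, 16656, 18249.7, 17316 and 17252 in DU145, with -0.26 ± 0.17 log2, and the LNCaP arrays numbered 1 were the lowest of the 10.

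The transporters all had lower means in LNCaP. SLC7A5, known as LAT1, which takes up leucine and other large amino acids, measured 1332, 1884, 171, 2622 and 351 in LNCaP, against 3498, 3641, 4513, 3254 and 3126 in DU145. All LNCaP arrays lay below all DU145 arrays, but the gap was -0.63 log2 among arrays numbered 2 and -3.85 among arrays numbered 1, so the difference of -2.24 ± 0.77 only just passed (adjusted p = 0.0408). SLC7A11, the cystine-glutamate exchanger, measured 3370.4, 4897, 2542, 5343 and 5105 in LNCaP, against 7486, 9034, 8159, 7815 and 5059 in DU145. It was lower in LNCaP, at -0.77 ± 0.22 log2 (adjusted p = 0.0195), while both LNCaP PGK arrays lay above DU145 PGK 1. Another SLC7A11 probe set gave 0.71, and with the mean of all its probe sets SLC7A11 was at -0.30 and not called. SLC7A5 and ATF5 were not called under that alternative either. SLC3A2, the heavy chain that pairs with SLC7A5 and SLC7A11, measured 1261, 1385, 1410.2, 1429.9 and 1868 in LNCaP, against 1578, 1498, 2797, 1572 and 2153 in DU145, and SLC1A5, a glutamine carrier, measured 313, 390.3, 402, 491 and 602 in LNCaP, against 337, 528, 849, 467 and 486 in DU145. Their differences, -0.36 ± 0.22 and -0.28 ± 0.20 log2, did not pass. The other targets did not pass: VLDLR, a lipoprotein receptor, measured 738, 773, 561, 866 and 485 in LNCaP, against 648, 672, 707, 1200.2 and 1066 in DU145 and differed by -0.43 ± 0.21 log2. STC2, a secreted glycoprotein, measured 1219, 948, 537, 956 and 669 in LNCaP, against 1403, 1255, 1258, 861 and 1171 in DU145 and differed by -0.56 ± 0.22 log2.

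**Figure D2:**
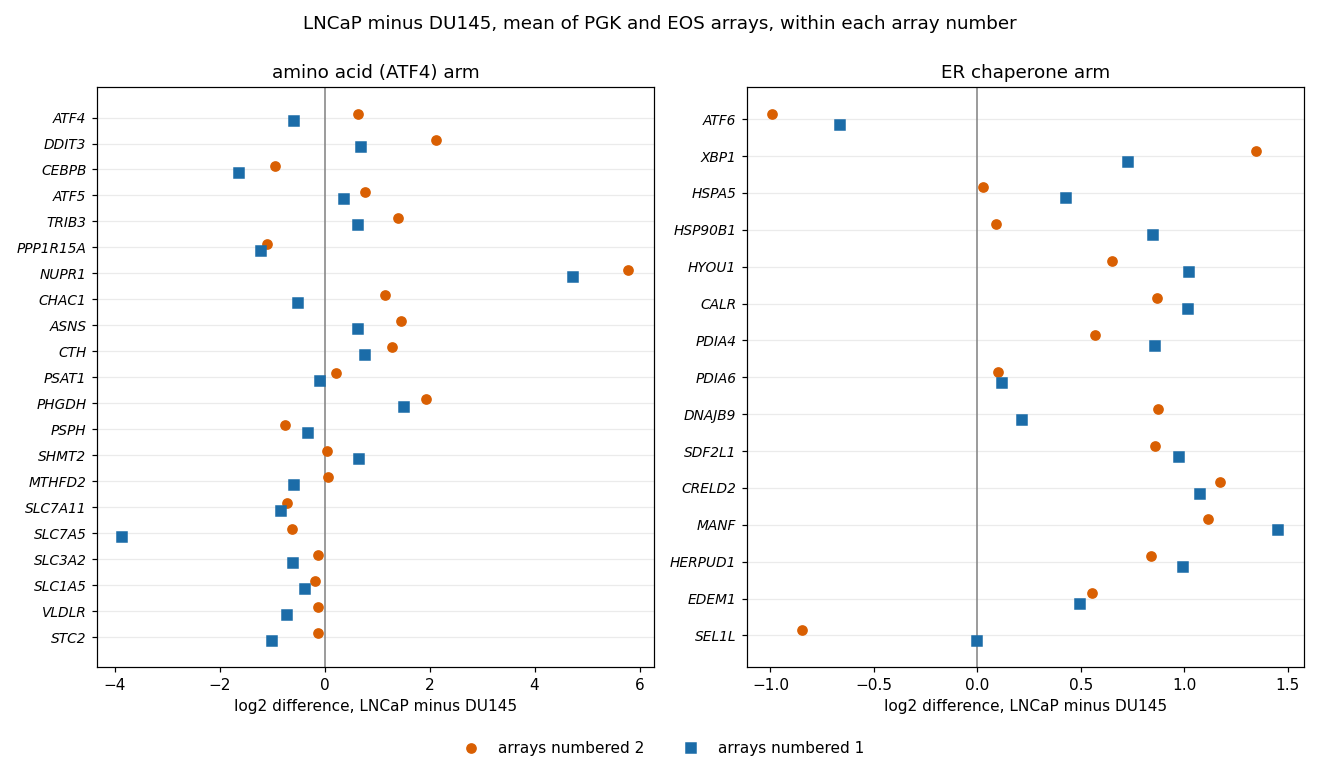
LNCaP minus DU145 (log2) for each gene of the ATF4 arm (left) and the ER chaperone arm (right), as the mean of the EOS and PGK differences within arrays numbered 2 (circles) and within arrays numbered 1 (squares). NUPR1 lay farthest to the right with both numbers, ATF4, CHAC1, PSAT1 and MTHFD2 lay on opposite sides of 0 in the numbers, and SLC7A5 was at -0.63 and -3.85.

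Within each group and number, the ER arm median between the lines was 0.56 for EOS 2, 0.87 for EOS 1, 0.86 for PGK 2 and 0.75 for PGK 1. The ATF4 arm median was 0.06 for EOS 2, -0.33 for EOS 1, 0.24 for PGK 2 and 0.06 for PGK 1. Without DU145 PGK 2 there were 15 calls in place of 23, and DDIT3, ATF5, CTH, PSPH, SLC7A11, SLC7A5, DNAJB9 and EDEM1 were not among them. The PGK groups alone also gave 15. SLC7A5 lost its call without any 1 of the DU145 EOS and PGK arrays or without either LNCaP array numbered 1, and it kept it under 8 of 19 alternatives. EDEM1 kept its call under 9, CTH under 10, and DNAJB9 and ATF5 under 11 of 19. ATF5 was also not called without DU145 PGK 1, DU145 EOS 2, LNCaP PGK 2 or LNCaP EOS 2, and CTH without DU145 PGK 1, DU145 EOS 1, either LNCaP PGK array or LNCaP EOS 2. DNAJB9 was not called without either DU145 EOS array, LNCaP PGK 2 or LNCaP EOS 2, and EDEM1 without DU145 EOS 1 or any 1 of the 4 LNCaP arrays. DDIT3 also lost its call without DU145 EOS 1 and SLC7A11 without DU145 EOS 2. On unscaled intensities, where each group mixes both deposited scales, only NUPR1 was called. Of 66 further genes of the pathway 58 were tested, and 18 passed as higher and 7 as lower. Among them GDF15, a secreted stress factor, measured 30081, 28705, 29359.9, 14450 and 18604 in LNCaP, against 62.0, 53.0, 102, 36.5 and 47.0 in DU145 and differed by 8.24 ± 0.20 log2, a size that depends on the constant of 16 added to the dim DU145 values. SLC43A1, a leucine transporter, was at 3.41 ± 0.22 and the stress factor ATF3 at 1.78 ± 0.17. MBTPS1, the Golgi protease that makes the first cut in ATF6, was at -1.47 ± 0.17, the ER chaperone HSPA13 at -0.86 ± 0.12 and the lectin chaperone CANX at -0.49 ± 0.10. The other ER folding genes had 3 of 15 higher and 3 lower, with a median of 0.02, and the other ER-associated degradation genes 0 of 6 called, so the excess of higher calls in the ER arm was not seen in these further ER genes. The other ATF4 targets had 9 of 17 higher and 0 lower, and the tRNA synthetases 3 of 11 higher and 1 lower.

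By array number, 6 genes of the ATF4 arm were higher in LNCaP arrays numbered 2, with SLC7A5, DDIT3 and ATF4 at the head, and 1 gene of the ER arm was lower. The comparison asks how arrays numbered 2 differ from arrays numbered 1 within the EOS and PGK groups, in a fit with a number term in each line, and the labels do not say what the number stands for. In LNCaP, 16 of 21 ATF4 arm genes lay above 0, with a median of 0.63, and 6 passed as higher and 0 as lower. Of the 15 ER arm genes 6 lay above 0, with a median of -0.07, and 0 passed as higher and 1 as lower. Of all tested genes 3.59% passed as higher and 2.85% as lower, with a median of 0.02. Leukocyte marker sums were 195 to 271 in LNCaP arrays numbered 2 and 76.9 to 101 in LNCaP arrays numbered 1. Fibroblast sums were 305 to 825 in number 2 and 490 to 646 in number 1, and endothelial sums 139 to 304 in number 2 and 250.5 to 260 in number 1. The ACTB end ratio and the deposited scale moved with the number in both lines, and their part in the result was not tested.

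SLC7A5 was at 1884 and 2622 in LNCaP EOS 2 and PGK 2, against 171 and 351 in EOS 1 and PGK 1. It was 8.55-fold higher with number 2 (log2 3.10 ± 0.18; 3.35 in EOS and 2.85 in PGK cells; limma adjusted p = 0.000207). In DU145 the same difference was -0.13 ± 0.18 log2, and the difference between the lines was 3.22 ± 0.26 (adjusted p = 0.00248). ATF4 was at 27582 and 27899 in LNCaP EOS 2 and PGK 2, against 8938 and 13502 in EOS 1 and PGK 1. It was 2.52-fold higher with number 2 (log2 1.34 ± 0.15, adjusted p = 0.00324), and at 0.11 ± 0.15 log2 in DU145. The difference between the lines, 1.22 ± 0.21, passed narrowly (adjusted p = 0.0494). DDIT3, which ATF4 raises, was at 1754 and 2108 in LNCaP EOS 2 and PGK 2, against 781 and 623 in EOS 1 and PGK 1. It was higher by 1.44 ± 0.21 log2 (adjusted p = 0.00946), and its difference between the lines did not pass (1.42 ± 0.30, adjusted p = 0.092).

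ASNS was higher with number 2 in LNCaP by 0.74 ± 0.14 log2 (0.84 in EOS and 0.64 in PGK cells, adjusted p = 0.0235). MTHFD2 was higher by 0.58 ± 0.12 (adjusted p = 0.0284) and TRIB3 by 0.70 ± 0.16 (adjusted p = 0.0467). For these last genes another, dimmer probe set lay below 0, at -0.08 for MTHFD2 and -0.50 for TRIB3. SEL1L was lower in number 2, at -0.63 ± 0.14 log2 (adjusted p = 0.0413), with 3 further probe sets below 0 too. TRIB3 kept its LNCaP call under 3 of 16 alternatives, SEL1L under 6, MTHFD2 under 7, ASNS under 12 and DDIT3 under 13. Among genes of the arm with unlike values in the LNCaP groups were CTH, at 1.68 in EOS and -0.07 in PGK cells, CHAC1, at 1.79 and 0.08, NUPR1, at 1.36 and -0.03, and SLC7A11, at 0.94 and 0.07 for EOS and PGK. None of them passed over both groups. Against the direction of the arm, SHMT2 was at -0.52 ± 0.14 log2 and did not pass (adjusted p = 0.0673), although its other probe sets were at -0.80 and -0.86. The arm median was 0.80 in EOS and 0.29 in PGK cells.

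**Figure D3:**
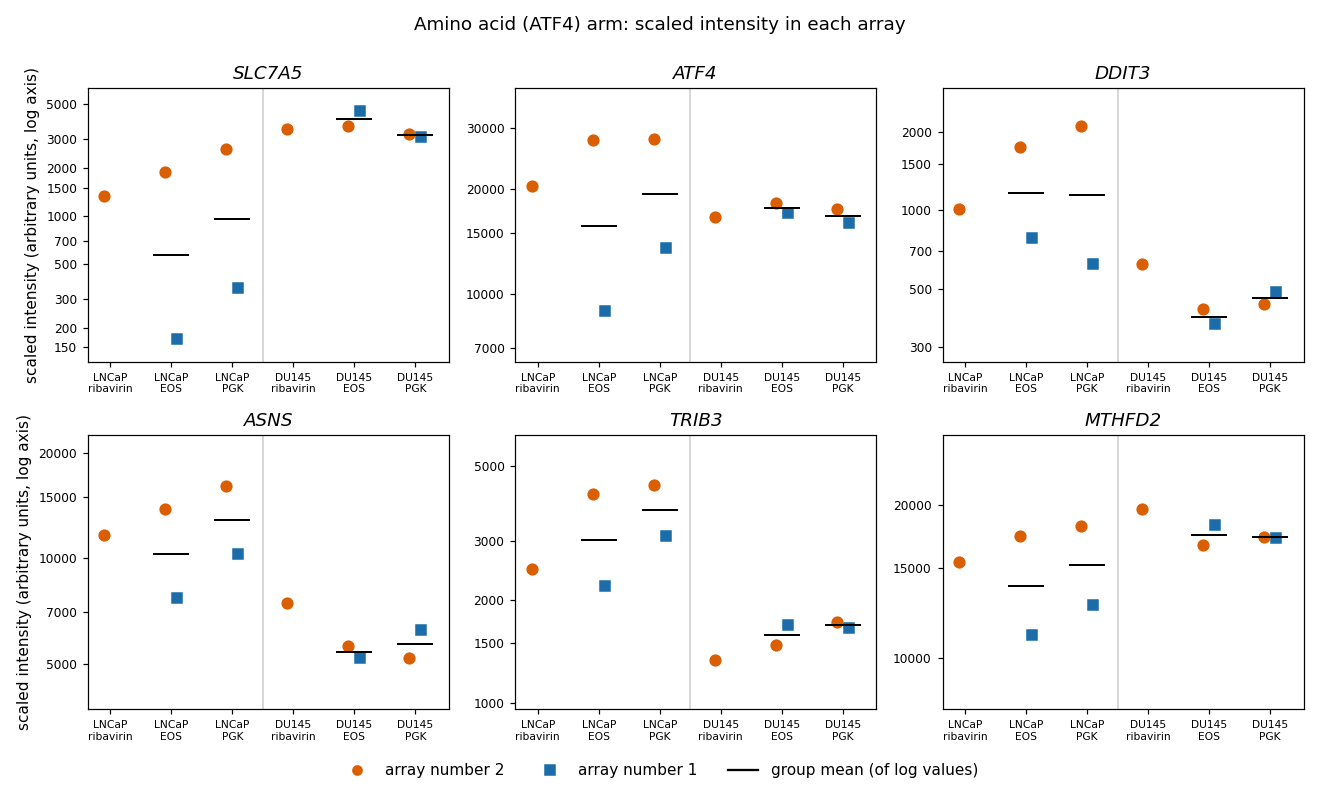
Scaled intensity (arbitrary units, log axis) of 6 ATF4 arm genes in each of the 10 arrays, by line and group. Circles are arrays numbered 2, squares arrays numbered 1, and bars the mean of the log values of a group with 2 arrays. In LNCaP every array numbered 2 lay above both arrays numbered 1 for SLC7A5, ATF4, DDIT3, ASNS and MTHFD2, while TRIB3 with ribavirin lay between EOS 1 and PGK 1, and the DU145 arrays lay closer together than those of LNCaP for SLC7A5 and ATF4.

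In DU145 limma called 0 of the 36 genes by number and 0% of all genes. At an unadjusted p under 0.05, which 3.78% of all genes passed as higher and 3.99% as lower, the set held HSP90B1, at 0.45 ± 0.16 log2, and SLC3A2, at -0.67 ± 0.18. The ATF4 arm median was -0.07 and that of the ER arm 0.05. As a mean of both lines SLC7A5, ATF4 and DDIT3 passed, at 1.49 ± 0.13, 0.72 ± 0.11 and 0.73 ± 0.15 log2, where 1.85% of all genes passed as higher. DDIT3 kept that call under 5 of 16 alternatives, ATF4 under 11 and SLC7A5 under 15. DDIT3 and ATF4 were not called there without any 1 of the DU145 EOS and PGK arrays, and DDIT3 also not without either LNCaP PGK array. The test of the difference between the lines called SLC7A5 and ATF4, where 0.558% of all genes passed as higher. Leaving out any 1 of the 4 DU145 EOS and PGK arrays left 4 calls in LNCaP in place of 7, without MTHFD2, TRIB3 and SEL1L, and 1 of the difference in place of 2, without ATF4. Without either LNCaP EOS array the LNCaP calls were 3, SLC7A5, ATF4 and DDIT3. Without either LNCaP PGK array the LNCaP number difference rests on EOS 2 against EOS 1 alone. DDIT3, TRIB3 and SEL1L then lost their calls, and CHAC1, CTH, NUPR1, SLC7A11 and HSPA5 gained one. In that EOS pair CHAC1 was at 1.79, CTH at 1.68, NUPR1 at 1.36 and HSPA5 at -0.75 log2. In the PGK pair CHAC1 was at 0.08, CTH at -0.07, NUPR1 at -0.03 and HSPA5 at -0.02. Without the intensity trend 1 gene, SLC7A5, was called in LNCaP.

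**Figure D4:**
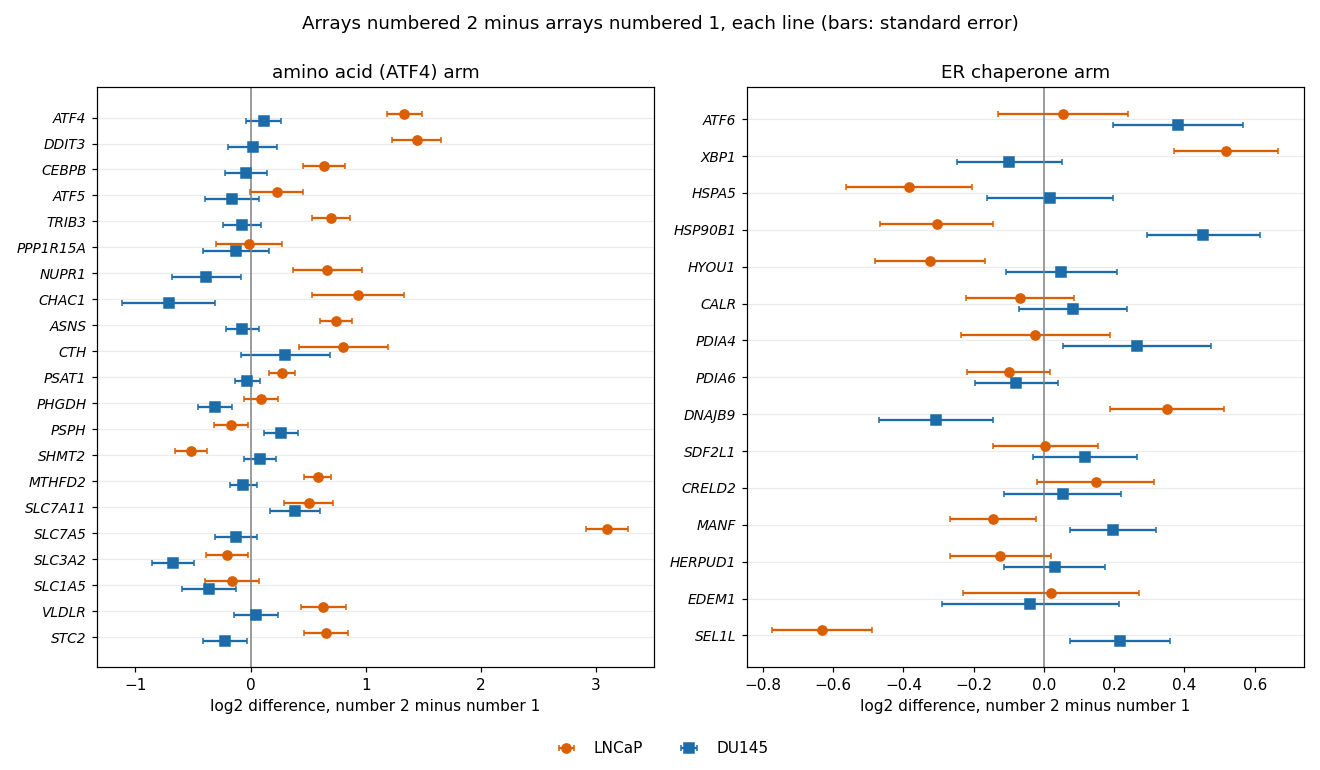
Arrays numbered 2 minus arrays numbered 1 (log2) for each gene of the ATF4 arm (left) and the ER chaperone arm (right), in LNCaP (circles) and DU145 (squares), with the standard error as bars. SLC7A5 stood at 3.10 in LNCaP and -0.13 in DU145, and ATF4 at 1.34 and 0.11. The ER arm had a median near 0 in both lines, -0.07 in LNCaP and 0.05 in DU145. Single ER genes lay off 0, such as SEL1L at -0.63 and XBP1 at 0.52 in LNCaP and HSP90B1 at 0.45 in DU145.

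Of the 58 further pathway genes tested, 6 passed as higher and 1 as lower with number 2 in LNCaP. ALDH1L2, a mitochondrial folate dehydrogenase, measured 457 and 988 in EOS 2 and PGK 2, against 2.91 and 29.6 in EOS 1 and PGK 1. It was so dim with number 1 that its log2 difference of 4.55 is set by the constant of 16 added before the log. SLC7A1, a carrier of cationic amino acids, was at 1.21 ± 0.13 log2, and KDELR3, a receptor that returns ER proteins, at 2.18 ± 0.19. UBE2J1, a ubiquitin-conjugating enzyme of ER-associated degradation, was at -1.34 ± 0.22. The tRNA synthetases had 10 of 11 above 0 in LNCaP and 1 passed.

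EOS selection, the comparison the series was made for, changed none of the 36 genes past the threshold in either line, in the mean of the lines or in their difference, and limma called 0% of all genes in each of these 4 tests. At an unadjusted p under 0.05 there were 227 genes in DU145, 597 in LNCaP, 293 in the mean and 464 in the difference of the lines, over all genes. In DU145 the ATF4 arm median was 0.04 (0.07 in pair 2 and 0.03 in pair 1, a pair being the EOS and PGK arrays of 1 number) and that of the ER arm -0.03 (0.12 and -0.18). In LNCaP both arms lay slightly below 0, with medians of -0.22 for the ATF4 arm (-0.09 in pair 2 and -0.40 in pair 1) and -0.17 for the ER arm (-0.20 and -0.08), where the median of all genes was 0.05. Of the ATF4 arm 15 of 21 genes lay below 0 in LNCaP, and of the ER arm 13 of 15, but the ATF4 arm median was 0.19 without EOS 1 and 0.01 without PGK 2, and the ER arm median 0.01 without EOS 2.

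The transporters differed in sign between the lines. In DU145 4 of 4 lay above 0 and in LNCaP 4 of 4 below 0. SLC1A5 was at 528 and 849 in DU145 EOS cells, against 467 and 486 in PGK cells (0.48 ± 0.28 log2), with DU145 EOS 1 standing out. In LNCaP it was at 390.3 and 402 in EOS cells, against 491 and 602 in PGK cells (-0.44 ± 0.28 log2). The differences between the lines, LNCaP minus DU145, were -0.92 ± 0.39 for SLC1A5, -1.01 ± 0.44 for SLC7A11 and -0.96 ± 0.36 for ATF5, each with an unadjusted p under 0.05, as were 0.74% of all genes on the lower side, and none passed the adjustment. For ATF5 the sign in DU145 depended on the probe set. The one used gave 0.44 there, and the dimmer others gave -0.46, -0.53 and -0.73. In LNCaP it gave -0.52, and the others gave -0.58, -0.41 and 0.21. The 11 tested tRNA synthetases lay below 0 in LNCaP, 11 of 11, with a median of -0.19, and 7 of 11 lay above 0 in DU145, with a median of 0.06.

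Single genes with an unadjusted p under 0.05 were few. In LNCaP, where 3.06% of all genes had such a p on the higher and 1.1% on the lower side, they were ATF6, PPP1R15A and PSAT1. ATF6 was at 767 and 814 in EOS cells, against 517 and 450.4 in PGK cells, a difference of 0.69 ± 0.24 log2 (limma adjusted p = 0.999). PPP1R15A was at 139 and 137 in EOS cells, against 74.7 and 77.3 in PGK cells (0.74 ± 0.28 log2, higher in both pairs). PSAT1 was lower in both pairs, at a mean of -0.37 ± 0.16 log2. Of the 3 other ATF6 probe sets, the brightest gave -0.46. In DU145, where 0.663% of all genes had such a p on the higher and 0.921% on the lower side, VLDLR alone had one. It was at 672 and 707 in EOS cells, against 1200.2 and 1066 in PGK cells (-0.70 ± 0.30 log2, limma adjusted p = 1). For ATF4 the differences were 0.08 ± 0.49 in DU145 and -0.31 ± 0.49 in LNCaP, and for HSPA5 0.09 ± 0.22 and -0.30 ± 0.22. Among the further genes GDF15 was at 0.65 ± 0.28 in DU145 and 0.82 ± 0.28 in LNCaP, higher with EOS in 4 of 4 pairs, and SLC1A4, a carrier of neutral amino acids, was at -0.73 ± 0.25 in LNCaP. Neither passed the adjustment.

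**Figure D5:**
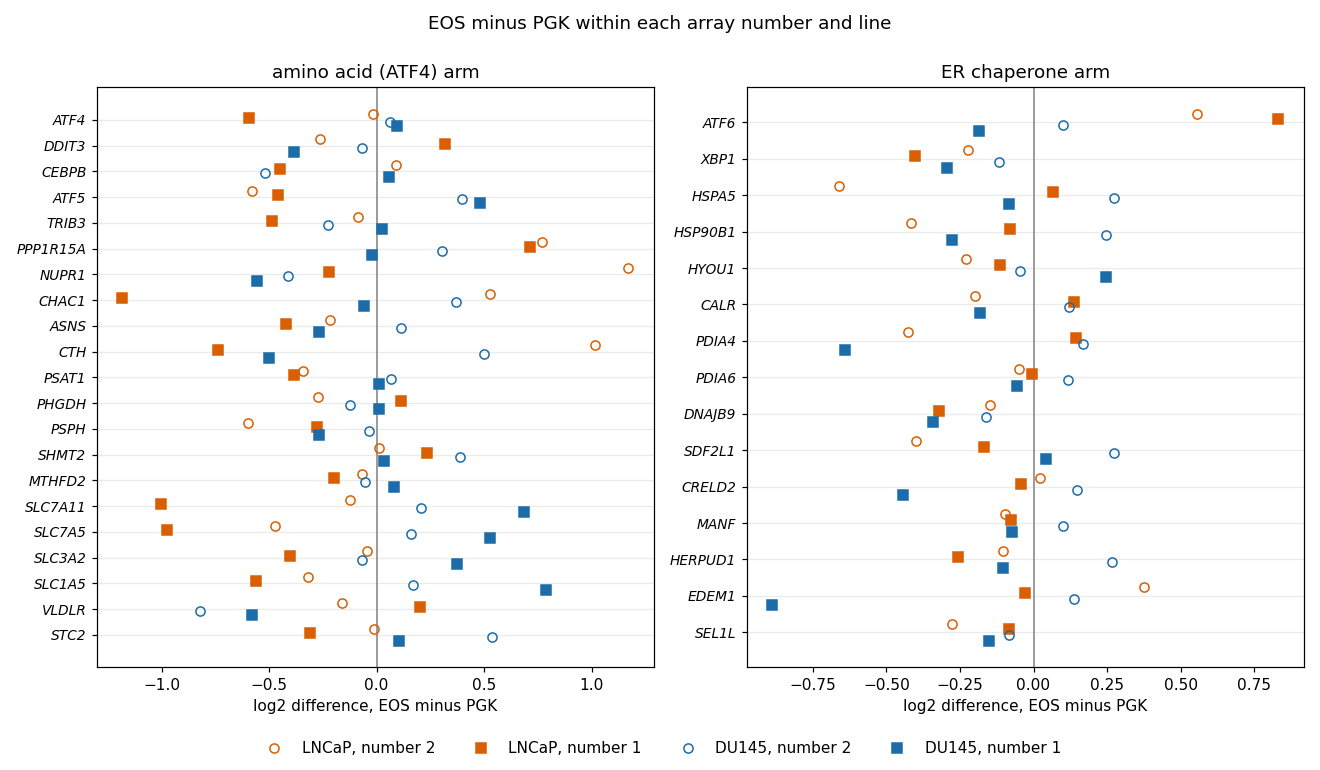
EOS minus PGK (log2) for each gene of the ATF4 arm (left) and the ER chaperone arm (right), within each array number, in LNCaP (orange) and DU145 (blue), with open circles for number 2 and filled squares for number 1. Most LNCaP points lay left of 0, PPP1R15A and ATF6 lay right of 0 in both LNCaP pairs, and for many genes the pairs of 1 line lay on opposite sides of 0.

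Ribavirin was measured on 1 array a line, so its difference from the EOS arrays takes its spread from the other groups. limma called 0 of the 36 genes and 0% of all genes in either line, in their mean and in their difference, with 250 genes at an unadjusted p under 0.05 in DU145, 290 in LNCaP, 253 in the mean and 222 in the difference. In DU145 the transporter SLC1A5 was at 337 with ribavirin, against 528 and 849 in EOS cells, below both (-0.96 ± 0.34 log2, limma adjusted p = 1). It was the only gene of the set with an unadjusted p under 0.05 in DU145, where 0.907% of all genes had one on the higher and 0.837% on the lower side, and all 4 transporters lay below 0 against the mean of both EOS arrays. Against EOS 2 alone, the array the labels tie to the treated cells, SLC1A5 was at -0.63 log2 and no longer had such a p, and SLC3A2 was above 0, at 0.07. ATF5 was at 186 with ribavirin, against 283 and 329 in EOS cells (-0.67 ± 0.31 log2). DDIT3 was at 624 with ribavirin, against 418 and 368 in EOS cells, above both, at 0.65 ± 0.67 log2. In LNCaP too, SLC1A5 and ATF5 lay below both EOS arrays with ribavirin. SLC1A5 was at 313, against 390.3 and 402 in EOS 2 and EOS 1, and ATF5 at 233, against 348 and 308. Against LNCaP EOS 2 alone they were at -0.30 and -0.54 log2. As a mean of both lines, against both EOS arrays, SLC1A5 was at -0.64 ± 0.24 and ATF5 at -0.56 ± 0.22 log2.

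In LNCaP the direction of the ATF4 arm depended on which EOS array was the control. The labels tie the treated cells to EOS number 2, and against that array 2 of 21 genes lay above 0, with a median of -0.24. Against EOS 1 the count was 15 of 21 with a median of 0.38, and against both arrays 11 of 21 with 0.14. Against EOS 2, DDIT3 was at -0.79, TRIB3 at -0.73, CHAC1 at -0.71, SLC7A5 at -0.49 and ATF4 at -0.44 log2, while STC2 was at 0.36 and PPP1R15A at 0.13. DDIT3, for example, was at 1008 with ribavirin, against 1754 and 781 in EOS 2 and EOS 1. With both EOS arrays as control, 0 of the 36 genes had an unadjusted p under 0.05, against 0.537% of all genes on the higher and 1.49% on the lower side. The ER arm median was 0.05 against EOS 2, -0.19 against EOS 1 and -0.07 against both, with XBP1 at -0.60 and HSPA5 at 0.12 against EOS 2. In DU145 the medians against EOS 2 were -0.04 for the ATF4 arm and -0.07 for the ER arm. Against EOS 2 alone, 1 array is set against 1, so any spread for these values comes from the PGK groups only.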

How the data were processed

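RNA of 10 samples was measured on Affymetrix arrays. The authors deposited probe set intensity values on a linear scale, as the files show, on 2 scales. MAS5 and affy are named, per the submitters' processing notes, and the background correction and scaling target are not given in the sources used here. The planned test assumed log2 values, so each array was first scaled to a 2% trimmed mean of 500 and log2(intensity + 16) was taken, which understates the change of dim genes and has a floor of 4. Of 54675 probe sets, 62 controls were left out, 41091 had 1 symbol in the platform annotation, 1801 several and 11721 none, and 41037 matched a current gene, changing 0 symbols. Probe sets above their array's median in at least 2 arrays were kept (33488), 27517 of them with 1 symbol, and the brightest of each gene was used (14330 genes).

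limma 3.58.1 in R 4.3.3 fitted the means of 6 groups (4 residual degrees of freedom; 2 with the number terms), with a trend of the variance on intensity, and p-values were adjusted over all genes by Benjamini-Hochberg, at 0.05. In group and line comparisons each SE comes from the spread within the EOS and PGK groups, 8 arrays whose count limits the precision. With the number terms that spread is fitted as the number difference. Each SE by number then comes from how far the EOS and PGK number differences of a line disagree, pooled over both lines. A ribavirin array was assumed to vary like the others. An exact permutation test of 2 arrays against 2 cannot go below p = 0.333. No 2 arrays held the same values. The scripts were tested on simulated data. The 36 genes, the 66 further genes and the alternatives were chosen with earlier results of these data known. All 36 genes were to be named, and up to 3 further genes in each direction of smallest p.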

Additional observations from a re-analysis of the deposited data

Results flagged for a closer look

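The difference between arrays numbered 2 and 1 was itself different in the lines for SLC7A5 and ATF4. For SLC7A5 it was 3.10 ± 0.18 log2 in LNCaP and -0.13 ± 0.18 in DU145, and the test of the difference gave 3.22 ± 0.26 (limma adjusted p = 0.00248). SLC7A5 kept that call under 15 of 16 alternatives, between 2.97 and 3.47, and lost it without the intensity trend (adjusted p = 0.148). For ATF4 the number difference was 1.34 ± 0.15 log2 in LNCaP and 0.11 ± 0.15 in DU145, and the test gave 1.22 ± 0.21 (adjusted p = 0.0494). ATF4 kept the call under 7 of 16 alternatives, between 0.93 and 1.51, with an adjusted p of up to 0.312. In LNCaP alone SLC7A5 was called under 16 of 16 alternatives and ATF4 under 15 of 16. Leaving out a ribavirin or DU145 array cannot change the LNCaP estimate, at most its spread. Leaving out either array of an LNCaP group leaves the same single pair, so these alternatives are not separate checks. Both genes were higher with number 2 in EOS and in PGK cells of LNCaP, each measured by 1 probe set. What the array number stands for is not given by the labels, and the deposited scale and the ACTB end ratio moved with it in both lines.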

How the results depend on the processing

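Under every alternative tried, none of the called genes changed sign, while arm medians near 0 did, as given. Some called genes came near 0, since with the mean of all probe sets the line difference was 0.05 for XBP1, 0.03 for HERPUD1 and -0.10 for ATF6. Of 629 values of single called genes under the alternatives, 485 stayed past the threshold and 144 did not, and their causes were not tested. Leaving out a ribavirin array cannot change these estimates, so the 629 values are not separate checks. Between the lines 23 genes were called, 1 without scaling, 15 among the PGK groups alone and 15 to 24 with 1 array left out. Unscaled groups mix both deposited scales, which widens the spread by construction. The ATF4 arm median between the lines was -0.37 in array number 1 alone and -0.27 to 0.14 with 1 array left out. By number in LNCaP 7 genes were called, 4 with the mean of all probe sets, 1 with no trend and 3 to 9 with 1 array left out. The ER arm median there was -0.28 with the mean of all probe sets. For the mean of the lines 3 were called, 0 with no trend and 1 to 4 with 1 array left out. For the difference of the lines 2 were called, 1 with a pseudocount of 1, with quantile normalisation, with no filter or with the mean of all probe sets, 0 with no trend and 1 to 4 with 1 array left out. The ATF4 arm median by number in DU145 was -0.0443 with quantile normalisation, -0.15 with the mean of all probe sets and -0.0947 to -0.0702 with 1 array left out.

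For EOS against PGK, 0 of the 36 genes were called under any alternative. The ATF4 arm median in DU145 was -0.16 without scaling, -0.00676 with quantile normalisation and -0.0718 to 0.0784 with 1 array left out. In LNCaP it was -0.55 to 0.19 with 1 array left out, and the ER arm median was -0.0753 in pair 1 alone and -0.17 to 0.0138 with 1 array left out. Arrays of a number share only that number in the labels, and their differences correlated between EOS and PGK cells across genes with r = 0.123 in DU145 and 0.483 in LNCaP. With the replicate block, a number term within each line (shared by the lines for the line comparison), the LNCaP ribavirin median of the ATF4 arm was -0.22 and the calls stayed at 0 for EOS and ribavirin and at 23 between the lines. Over all genes the counts of calls moved by over 1.5 times between the lines, 481 without scaling in place of 6626, and by number in LNCaP, 533 with the mean of all probe sets, 105 with no trend and 481 to 939 with 1 array left out, in place of 923. For the difference by number they were 73 with a pseudocount of 1, 46 with the mean of all probe sets, 0 with no trend and 67 to 198 with 1 array left out, in place of 135. For the mean of the lines by number they were 306 with a pseudocount of 1, 267 with the mean of all probe sets, 0 with no trend and 101 to 603 with 1 array left out, in place of 482. With 1 array left out, up to 4 genes were called for EOS in LNCaP and up to 6 by number in DU145, where 0 were called with all arrays. Without scaling the median of all genes for EOS in DU145 was -0.18. The unscaled alternative was run for EOS and the lines only. Precision is limited by 2 arrays a group and, for dim genes such as PPP1R15A, ATF5 and CHAC1, by the added constant.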
